A study of Mus musculus with 8 samples.

Results

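The genes described here are 10 that encode high mobility group (HMG) chromatin proteins and the histone variant H2A.Z, out of 24259 gene symbols in the count table. They are Hmgb1, Hmgb2, Hmgb3, Hmgn1, Hmgn2, Hmgn3, Hmgn5, Hmga1, H2az1 and H2az2, taken by their symbols, and all 10 had enough counts to be tested. The set was chosen by gene family with the CPM of these genes in the 2 groups of B cells already known, so the difference between the groups is given below as a description and not as a test of the set. The 8 libraries hold RNA of pre-germinal center (pre-GC) B cells, which had bound the hapten NP and lowered IgD (NP+IgDlowB220+). These cells came from draining lymph nodes of CD45.1 Sap-/- mice 3 days after subcutaneous NP-OVA with LPS in alum, and these hosts, whose own T cells cannot sustain germinal centers, had been given OT-II T cells, which recognise ovalbumin. Transferred T cells were Cd4-cre x Bcl6 fl/+ for HET and Cd4-cre alone for WT, so the T cells of both groups carried the T cell Cre driver, while the sequenced B cells belonged to the host and carried neither allele. Each group was a single pool of several recipients, and its 4 libraries are separate sorts of about 200 cells each from it. The spread between libraries of a group is therefore technical, p-values measure only that spread, and pool and group cannot be told apart.

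HMG proteins are abundant nuclear proteins that shape chromatin without being part of the histone core. HMGB proteins bend DNA through HMG boxes, HMGN proteins bind the nucleosome core and counteract its compaction by linker histone H1, and HMGA proteins grip the narrow groove of AT-rich DNA with AT hooks. H2A.Z replaces H2A in nucleosomes around transcription start sites, where the SRCAP and p400/TIP60 complexes place it and where INO80 and ANP32E are linked to its removal. In lymphocytes HMGB1 and HMGB2 are known as DNA-bending cofactors of RAG recombination, and HMGB2 and H2A.Z transcripts are commonly abundant in dividing cells.

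The promoters of Hmgb2, H2az1 and H2az2 are shown because the first pair varied together between libraries and the last is the paralog of H2az1 that did not follow them. Each run is the 250 bases before the RefSeq start of the gene, on build GRCm38.p6, written 5′ to 3′ on the gene's own strand. Capitals mark matches to CCAAT, the box bound by NF-Y, and to TTTGAA, the core of the cell cycle homology region, searched on both strands, so that ATTGG and TTCAAA are the same words on the other strand. No match of one word overlapped a match of the other. The Hmgb2 window lies at chr8:57511593-57511842 on the plus strand, the H2az1 window at chr3:137864237-137864486 on the plus strand and the H2az2 window at chr11:6444444-6444693 on the minus strand.
Hmgb2: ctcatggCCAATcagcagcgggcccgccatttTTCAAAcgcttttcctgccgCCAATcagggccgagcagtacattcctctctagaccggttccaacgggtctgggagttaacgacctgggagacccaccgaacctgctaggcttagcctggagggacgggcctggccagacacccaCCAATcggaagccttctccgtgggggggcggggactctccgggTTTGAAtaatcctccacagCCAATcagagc
H2az1: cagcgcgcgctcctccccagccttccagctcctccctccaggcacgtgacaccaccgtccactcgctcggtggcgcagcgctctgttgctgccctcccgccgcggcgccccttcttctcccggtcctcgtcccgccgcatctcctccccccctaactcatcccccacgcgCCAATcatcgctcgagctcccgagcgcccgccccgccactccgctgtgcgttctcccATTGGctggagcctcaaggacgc
H2az2: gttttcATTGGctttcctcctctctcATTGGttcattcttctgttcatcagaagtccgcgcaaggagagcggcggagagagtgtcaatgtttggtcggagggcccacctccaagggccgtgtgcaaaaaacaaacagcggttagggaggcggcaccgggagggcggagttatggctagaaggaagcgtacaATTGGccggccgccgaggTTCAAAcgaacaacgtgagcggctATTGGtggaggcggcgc

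The Hmgb2 window held 4 CCAAT words, beginning 243, 198, 73 and 11 bases before the start, and 2 TTTGAA words, at 218 and 30 bases. The H2az1 window held 2 CCAAT words, at 80 and 23 bases, and no TTTGAA. The H2az2 window held 4 CCAAT words, at 244, 224, 59 and 17 bases, and 1 TTTGAA word, at 41 bases. RefSeq gave a window for 9 of the 10 genes (Hmgn3 was not among them), with 11 windows in all, since Hmgb1 and Hmga1 have 2 each. CCAAT was present in 7 of the 11 windows and in 33.8% of all 32851 windows of this length. TTTGAA was present in 3 of the 11, those of Hmgb2, Hmgb3 and H2az2, and in 16.0% of all windows. The Hmgn2 window, both Hmga1 windows and 1 of the 2 Hmgb1 windows held neither word. Among the genes whose groups did not overlap, Hmgb2 and H2az1 thus carried CCAAT words, while Hmgn2 and Hmga1 did not. CCAAT words were also present in genes whose groups overlapped, such as Hmgb1 and H2az2. The TTTGAA word was present in Hmgb2 and also in Hmgb3 and H2az2, whose groups overlapped. These matches describe the letters only.

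Sequencing depth ran from 6652386 to 12559189 counts per library, and 12744 genes were tested. The B cell identity of the sort was checked with 10 markers, all of which were detected in every library, with a summed level of 27852 to 37388 counts per 1000000 (CPM) in HET and 31986 to 35174 CPM in WT. The overlap came from HET 1, where Ighm, the IgM heavy chain, was at 15362 CPM, and HET 2 to 4 ran from 27852 to 29576 CPM, below every WT library. Of the 10 markers, 9 were lower in HET (50.1% of all genes tested), 8 at an unadjusted p under 0.05 (3.88% of all genes), and 6 were lower without overlap of the groups (2.62% of all genes). None passed the threshold in edgeR, and Cd74, the invariant chain, and Cd22, an inhibitory receptor, passed the threshold in DESeq2 (adjusted p = 0.00868 and 0.0159). Of 8 tested plasmablast markers, 6 were higher in HET, beside 49.9% of all genes tested. Neither tool called any, but DESeq2 gave no adjusted p for Jchain, the joining chain of secreted antibody. The summed level of the plasmablast markers in HET 1 was 2192 CPM, of which Jchain made up 1576 CPM. The sum was 307 to 589 CPM for HET 2 to 4 and 259 to 574 CPM for WT.

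All 10 genes had a higher mean CPM in HET than in WT, where 49.9% of the genes tested were higher in HET. The 10 together made up 0.257% ± 0.0216 of all counts in HET and 0.187% ± 0.0153 in WT (SD, n = 4), and their summed level ran from 2285 to 2757 CPM in HET and from 1727 to 2041 CPM in WT, without overlap. The median log2 fold change (HET over WT) was 0.47 over the 10 genes and -0.0014 over all genes tested. By edgeR with Benjamini-Hochberg adjustment over all genes tested, none of the 10 passed an adjusted p of 0.05, and neither did any other gene higher in HET (0%), the 3 genes called being lower (0.0235%). At an unadjusted p under 0.05, 5 of the 10 were higher, Hmgb2, H2az1, Hmgn2, Hmga1 and Hmgb3, beside 3.34% of all genes tested. DESeq2 called 4 of the 10, Hmgb2, H2az1, Hmgn2 and Hmga1 (adjusted p = 7.4e-05, 0.000186, 0.000186 and 0.0359), beside 0.296% of genes. The 2 groups did not overlap for the same 4, beside 1.99% of genes. Because the 10 were chosen with this contrast known, nothing is read from these counts about the set.

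**Figure D1:**
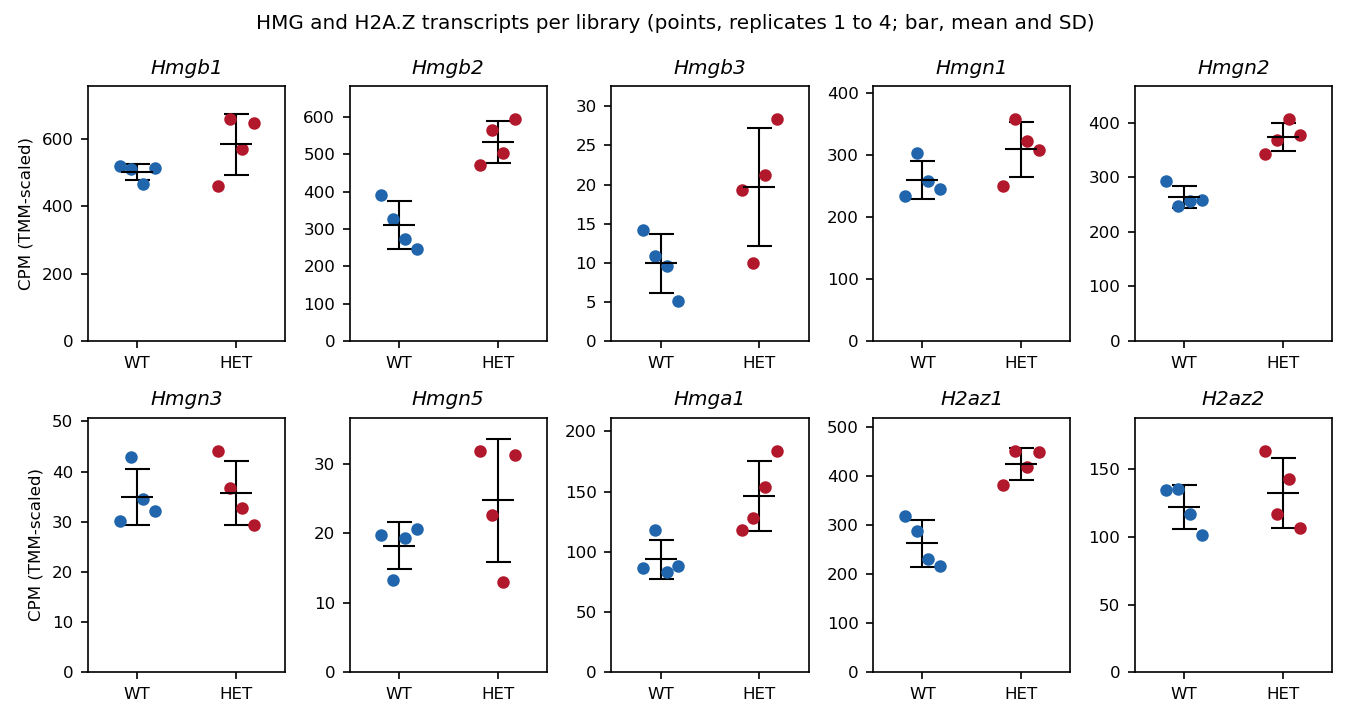
TMM-scaled CPM of each of the 10 genes in the 4 WT (blue) and 4 HET (red) libraries, with the mean and SD of each group as black bars and a separate vertical axis from 0 for each gene. The red points lie above every blue point for Hmgb2 (470.4 to 594 against 247 to 392 CPM), Hmgn2, Hmga1 and H2az1, and mix with them for the other 6 genes.

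Hmgb2 encodes an HMG-box protein that is characteristic of proliferating cells, and its gene lies on chromosome 8, 57511907 to 57515999, plus strand (GRCm38). Hmgb2 was at 470.4, 565, 503 and 594 CPM in HET 1 to 4 and at 392, 327, 272 and 247 CPM in WT 1 to 4. The lowest HET library stood above the highest WT library. The means were 533 ± 56.7 and 309.5 ± 64.3 CPM (SD, n = 4), 1.72 times higher in HET, with a log2 fold change of 0.78 (SE 0.13).

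Hmgb1, the ubiquitous member of the family and also an alarmin when released, lies on chromosome 5, 149046702 to 149184489, minus strand. Hmgb1 was at 462, 659, 571 and 648 CPM in HET 1 to 4 and at 520.1, 511, 466 and 514 CPM in WT 1 to 4. The groups overlapped through HET 1, which was below all 4 WT libraries, and the log2 fold change was 0.22 (SE 0.11). Hmgb3, the family member best known from immature blood cells, lies on chromosome X, 71555918 to 71560676, plus strand. Hmgb3 was at 19.3, 9.97, 21.3 and 28.4 CPM in HET 1 to 4 and at 14.3, 10.9, 9.59 and 5.11 CPM in WT 1 to 4. Its log2 fold change was the largest of the 10, at 0.98 (SE 0.38), with the largest SE. It had 49 to 240 counts per library, and HET 2 lay among the WT libraries.

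The levels above can be restated as shares of the HMGB counts, from the same counts and not as a separate result. Per base of exon, Hmgb2 made up 60.9, 58.1, 57.6 and 58.3% of the HMGB counts in HET 1 to 4 and 54.3, 50.5, 48.3 and 44.0% in WT 1 to 4. All 4 HET libraries were above all 4 WT libraries, and the means were 58.7% ± 1.47 and 49.3% ± 4.31 (SD, n = 4), 9.43 percentage points apart. A share within a library does not depend on scaling between libraries. The size of the share depends on the length used, and by counts alone it was 47.0% ± 1.69 in HET and 37.4% ± 4.22 in WT (SD, n = 4). The share planned in advance was that of the deposited TPM values, where the groups were 4.73 points apart.

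Hmgn2, a nucleosome-binding HMGN protein, lies on chromosome 4, 133964738 to 133968650, minus strand. Hmgn2 was at 343, 369, 406 and 378 CPM in HET 1 to 4 and at 292, 247, 256 and 258 CPM in WT 1 to 4. No HET library reached down to the WT range, and the libraries of each group lay close together, with a coefficient of variation of 7.04% in HET and 7.55% in WT. The means were 374 ± 26.3 and 264 ± 19.9 CPM (SD, n = 4), 1.42 times higher in HET, with a log2 fold change of 0.51 (SE 0.09), the smallest SE of the 10.

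Hmgn1, the close relative of Hmgn2 with the same nucleosome-binding domain, lies on chromosome 16, 96120618 to 96127729, minus strand. Hmgn1 was at 250.1, 357, 321 and 307 CPM in HET 1 to 4 and at 233, 303, 257 and 244 CPM in WT 1 to 4. HET 1 fell inside the WT range, and the log2 fold change was 0.25 (SE 0.12). Hmgn2 made up 48.9% ± 2.41 of the HMGN counts per base of exon in HET and 44.3% ± 4.02 in WT (SD, n = 4), a difference of 4.61 points, with only 2 HET libraries above all WT libraries.

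Hmgn3 and Hmgn5 are HMGN proteins of more restricted expression, and both were low here. Hmgn3, on chromosome 9, 83109948 to 83146685, minus strand, ran from 29.4 to 44.1 CPM in HET and from 30.1 to 43.0 CPM in WT, and its log2 fold change of 0.04 (SE 0.21) was the closest to 0 of the 10. Hmgn5, which carries a long acidic tail and lies on chromosome X, 109004534 to 109013404, minus strand, was at 31.8, 22.7, 13.0 and 31.2 CPM in HET 1 to 4 and at 19.7, 13.2, 19.3 and 20.7 CPM in WT 1 to 4. The HET libraries spread over a wider range than the WT libraries and covered it, and the log2 fold change was 0.44 (SE 0.30).

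Hmga1, the AT-hook protein that is high in embryonic and in many dividing cells, lies on chromosome 17, 27556497 to 27563674, plus strand. Hmga1 was at 118, 128, 154 and 184 CPM in HET 1 to 4 and at 86.8, 118, 83.0 and 88.1 CPM in WT 1 to 4. HET 1 and WT 2 nearly met (118.5 and 117.9 CPM), while the other WT libraries lay well below. The means were 146 ± 29.2 and 93.9 ± 16.1 CPM (SD, n = 4), 1.56 times higher in HET, with a log2 fold change of 0.64 (SE 0.16).

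H2az1 and H2az2 encode H2A.Z proteins that are nearly identical, from genes on different chromosomes. H2az1 lies on chromosome 3, 137864487 to 137866922, plus strand, and H2az2 on chromosome 11, 6427229 to 6444443, minus strand. H2az1 was at 382, 452, 419 and 449 CPM in HET 1 to 4 and at 318, 288, 231 and 216 CPM in WT 1 to 4. Every HET library exceeded every WT library, the means were 425 ± 32.4 and 263 ± 48.0 CPM (SD, n = 4), 1.62 times higher in HET, and the log2 fold change was 0.69 (SE 0.12).

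H2az2 did not follow it. H2az2 was at 163, 117, 143 and 107 CPM in HET 1 to 4 and at 134, 135, 117 and 101 CPM in WT 1 to 4, with overlapping groups and a log2 fold change of 0.12 (SE 0.15). Per base of exon, H2az1 made up 68.3, 78.1, 72.9 and 79.5% of H2A.Z counts in HET 1 to 4 and 68.5, 66.2, 64.4 and 66.3% in WT 1 to 4. The means were 74.7% ± 5.12 and 66.4% ± 1.68 (SD, n = 4), 8.32 points apart. HET 1 lay within the WT range, and the other 3 HET libraries lay above it. In the deposited TPM values, the measure planned in advance for this share, the means were only 1.50 points apart. H2az1 thus supplied most H2A.Z counts in all 8 libraries, and a larger part of them in 3 of the 4 HET libraries.

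**Figure D2:**
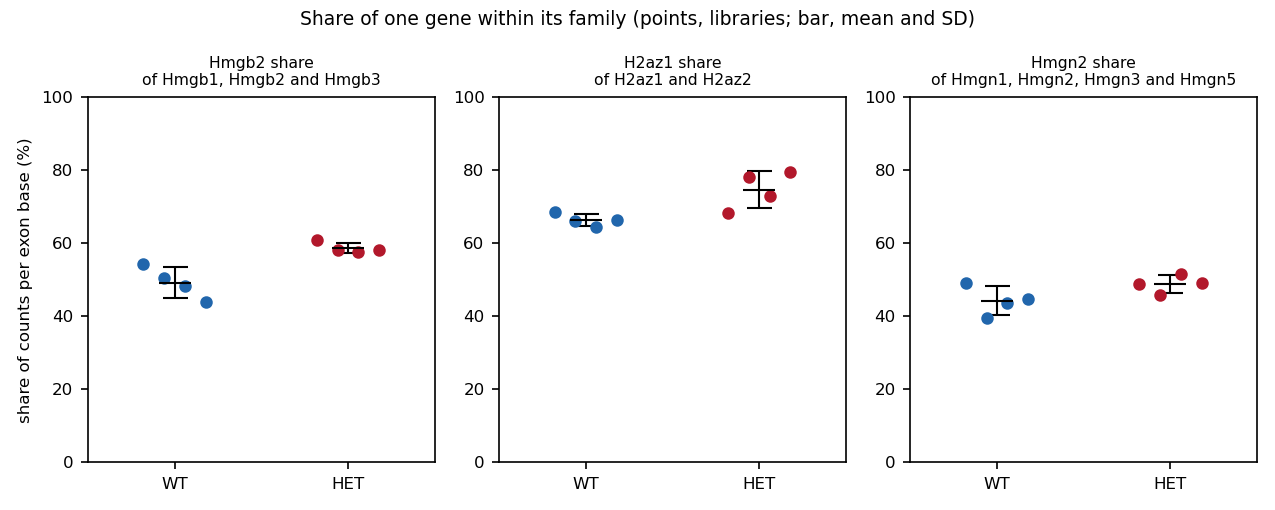
Share of counts per base of exon that 1 gene took within its family, in percent on an axis from 0 to 100, for each WT (blue) and HET (red) library, with group mean and SD in black. Hmgb2 separated the groups (57.6 to 60.9% against 44.0 to 54.3%), H2az1 did so in 3 of 4 HET libraries, and Hmgn2 overlapped. The use of exon length was chosen after seeing the data.

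The adjusted p of the 10 genes in edgeR ran from 0.0870 for Hmgb2 and 0.0971 for H2az1 through 0.117 for Hmgn2 and 0.299 for Hmga1 to 0.981 for Hmgn3. Among genes higher in HET, Hmgb2 ranked 2, H2az1 4, Hmgn2 5 and Hmga1 22 by p. WT 1 carried the highest Hmgb2 and H2az1 of its group, and without it both passed the threshold in edgeR (adjusted p = 0.0223 and 0.0388). Without HET 4, the adjusted p was 0.387 for Hmgb2 and 0.399 for H2az1. Their log2 fold changes moved little over the 8 fits that each left out 1 library, from 0.69 to 0.91 for Hmgb2 and from 0.61 to 0.79 for H2az1.

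**Figure D3:**
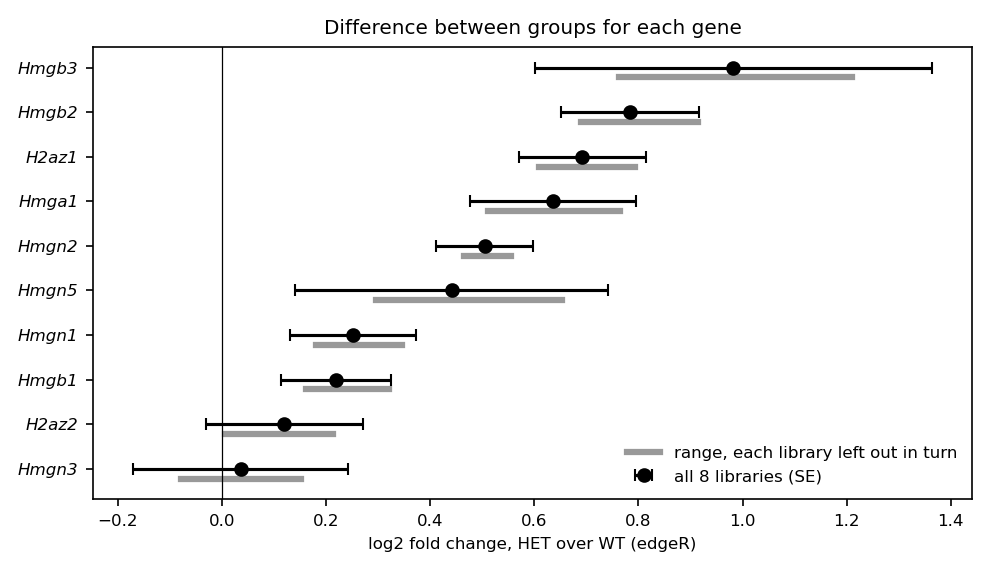
Fitted log2 fold change of HET over WT for each gene (black point, with its SE) and the range over 8 fits that each left out 1 library (grey bar). Hmgb2, Hmgb3, H2az1, Hmga1 and Hmgn2 kept to 0.47 and above, while the grey bar of Hmgn3 crossed 0 (-0.08 to 0.15).

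Single libraries had a recognisable place across the genes. HET 1 was the lowest HET library for 6 genes, Hmgb1, Hmgb2, Hmgn1, Hmgn2, Hmga1 and H2az1, and the highest for Hmgn3, Hmgn5 and H2az2. HET 1 was also the library with high plasmablast transcripts, whose part in these levels was not tested. WT 1 was the highest WT library for 5 genes, Hmgb1, Hmgb2, Hmgb3, Hmgn2 and H2az1. WT 4 was the lowest for Hmgb2, Hmgb3, H2az1 and H2az2.

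Between libraries of the same group, Hmgb2 and H2az1 were high and low together. After the mean of each group was subtracted from the log2 CPM, their Pearson r over the 8 libraries was 0.978, the highest of the 45 pairs among the 10 genes. The next highest was 0.656 for Hmgb1 and Hmgn1, and the lowest were -0.780 for Hmgn2 and Hmgn3 and -0.700 for Hmgb1 and H2az2. The 2 H2A.Z genes had an r of 0.187 with each other. In all, 23 of the 45 pairs had an r above 0 and 9 reached 0.5. The points share library depth and pool, so these values are a description of 8 libraries.

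Outside the 10 genes, those most like Hmgb2 in this within-group pattern, among 7261 genes whose mean log2 CPM was 4 or more, were Oma1 (r = 0.982), a mitochondrial protease, Macroh2a1 (0.970), which encodes the histone variant macroH2A1, Txn1 (0.963), which encodes thioredoxin, Nolc1 (0.945), a nucleolar protein, and Nub1 (0.936). Those most like H2az1 were Nolc1 (0.979), Oma1 (0.975), Rrp9 (0.970), a component of the U3 small nucleolar particle, Cdca7 (0.953) and Nelfa (0.953), a subunit of the negative elongation factor. Over all 8 libraries with the group difference left in, Txn1 stayed close to Hmgb2 (r = 0.989) and Nolc1 to H2az1 (0.971). Oma1 did not stay close to either (0.191 and 0.177). Macroh2a1 (0.451) and Nub1 (0.414) did not stay close to Hmgb2, nor did Nelfa (0.424) to H2az1. The genes named are the highest of 7261 values of r over 8 libraries, and how high chance alone would reach was not tested.

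Levels were compared between genes per kilobase of exon, as the mean over 8 libraries. H2az1 was the highest, at 194 CPM per kb (SD 53.3), followed by Hmgb2 at 140.3 (SD 44.0), Hmgb1 at 108 (SD 15.1), Hmgn2 at 104 (SD 20.6), Hmgn1 at 88.2 (SD 13.7) and H2az2 at 77.9 (SD 12.7). Hmga1 was at 56.5 CPM per kb (SD 16.7), above Hmgn3 at 18.9 (SD 2.99), Hmgn5 at 11.1 (SD 3.67) and Hmgb3 at 6.64 (SD 3.41). The ranges of neighbours in this order overlapped except between Hmga1 and Hmgn3, and H2az1 exceeded Hmgb2 in all 8 libraries although the ranges overlapped. The order of Hmgb1 and Hmgn2 was that of the mean over both groups and differed between them. In HET, Hmgn2 was at 122 ± 8.60 and Hmgb1 at 117 ± 18.1 CPM per kb, and in WT, Hmgb1 was at 100.1 ± 4.98 and Hmgn2 at 86.1 ± 6.50 (SD, n = 4). The order of Hmgb2 and Hmgb1 was turned when the longest transcript gave the length (160 and 192 CPM per kb).

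**Figure D4:**
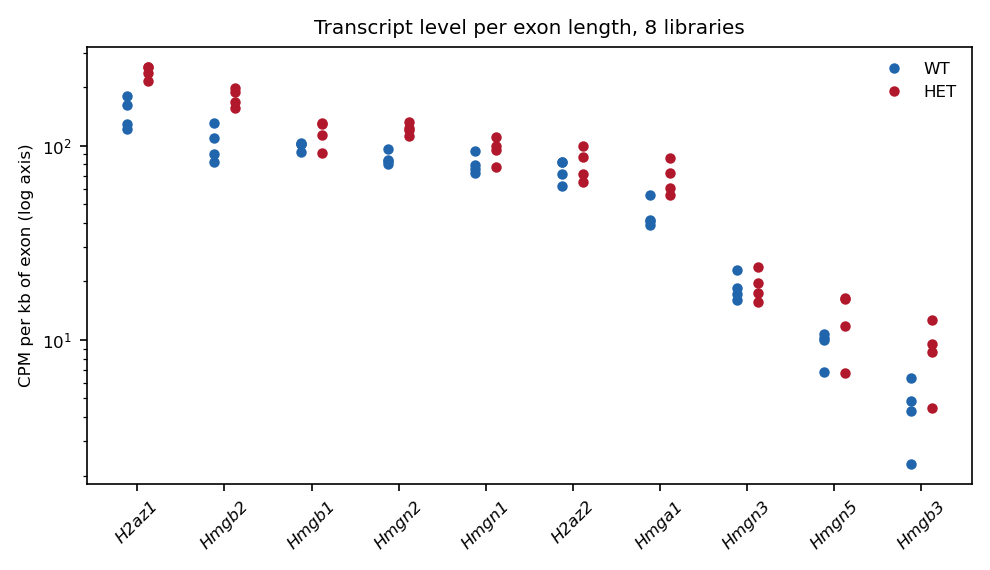
CPM per kb of exon (log axis) of the 10 genes in each WT (blue) and HET (red) library, ordered by the mean over 8 libraries. A gap separates Hmga1, at 39.1 and above, from Hmgn3, Hmgn5 and Hmgb3, at 23.6 and below.

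The deposited TPM values, which are scaled to gene length, gave a different order, with Hmgb2 at 634, H2az1 at 573, Hmgn2 at 380, Hmgn1 at 210 and Hmgb1 at 99.8, and with H2az2 at 22.9 and Hmgn3 at 5.11. The gene lengths behind these values followed the span of the gene with its introns (Spearman rho 0.959 over 10997 genes) more closely than its exons (0.627). Relative to Hmgb2, the length implied for H2az2 was 8.37 while its exons are 0.544 times as long, and for Hmgb1 the implied length was 8.23 against 1.67. The spans are 17215 bases for H2az2, 137788 for Hmgb1 and 4093 for Hmgb2. The implied lengths of H2az2 and Hmgb1 thus exceeded the exon ratio but did not match the ratio of spans. TPM levels of genes with long introns are therefore low on this scale, and the balance between paralogs looked more lopsided, with Hmgb2 at 86.8% ± 0.649 of HMGB TPM in HET and 82.1% ± 2.36 in WT, and H2az1 at 96.7% ± 0.873 and 95.2% ± 0.342 of H2A.Z TPM (SD, n = 4). The length cancels in a comparison of 1 gene between libraries, but TPM and CPM scale the libraries differently. By TPM the mean of Hmgn3 was slightly lower in HET (5.07 against 5.15 in WT), where by CPM it was slightly higher (35.8 against 34.9).

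Some counts of these genes are uncertain because the handling of reads with several alignments and the strand setting are not given in the sources used here. Rows named as copies of Hmgb1 held 1.20 to 2.68% of the combined counts, Hmga1b held 1.02 to 2.84% of those of Hmga1, and Hmgn2-ps1 held 0.369 to 1.31% of those of Hmgn2. Copies were found by symbol only, and copies under other names were not counted, so these shares are not upper limits. Exons of Hmgb1, Hmgn3 and Hmga1 overlap those of genes on the opposite strand (Uspl1 for Hmgb1), and Mm2pr overlaps Hmgb1 on the same strand.

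Genes for the machinery that moves H2A.Z were split between the directions. Of 31 genes for its deposition and removal (subunits of SRCAP, p400/TIP60 and INO80, and Anp32e), 15 were higher and 16 lower in HET. Over all genes tested 49.9% were higher, and the median log2 fold change of the 31 was -0.06. None passed the threshold in edgeR. At an unadjusted p under 0.05 there were 2 in each direction (3.34% of all genes higher, 3.88% lower), the groups did not overlap for 1 higher and 3 lower genes (1.99 and 2.62% of all genes), and DESeq2 called 1, Epc1, as lower. Epc1, a scaffold subunit of TIP60, was at 18.9 ± 1.75 CPM in HET and 33.2 ± 3.98 CPM in WT (SD, n = 4), with a log2 fold change of -0.81 (SE 0.21) and an adjusted p of 0.328 in edgeR and 0.0147 in DESeq2, where 0.39% of all genes were called lower. Uchl5, a deubiquitinase bound to INO80 and to the proteasome, was at 68.9 ± 16.7 and 41.1 ± 10.4 CPM (log2 fold change 0.74), and Ep400, the p400 ATPase, at 113 ± 19.1 and 141 ± 5.83 CPM (-0.32). Neither passed the threshold in either tool.

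Among 22 tested genes for other HMG-box and HMG proteins, 13 were higher and 9 lower, beside 49.9% of all genes higher. The median log2 fold change was 0.05, and neither edgeR nor DESeq2 called any. In each direction 1 had an unadjusted p under 0.05, beside 3.34% of all genes higher and 3.88% lower. The lowest p belonged to Tcf7l2, a low-expressed HMG-box factor of the Wnt pathway (log2 fold change 1.49), Kmt2c (-0.39) and Kmt2d (-0.26), which are H3K4 methyltransferases. Among 29 tested genes for other histone variants and histone chaperones, 18 were higher and 11 lower, with a median of 0.10, beside the same 49.9%. Neither tool called any, and 4 were higher with an unadjusted p under 0.05, beside the same 3.34%. The lowest p belonged to Anp32b (313 ± 41.0 and 240 ± 26.6 CPM, log2 fold change 0.38) and Set (0.32), both histone chaperones, and H2ax (0.60), the variant phosphorylated at DNA breaks.

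Most of the listed cell cycle transcripts were also higher in HET, beside 49.9% of all genes tested. Of 20 S phase genes, 20 were higher in HET, with a median log2 fold change of 0.42, and their summed level was 1493 to 2263 CPM in HET and 1236 to 1742 CPM in WT. Of 20 genes of G2 and M phase, 19 were higher, with a median of 0.73, and their summed level was 682 to 1117 CPM in HET and 206 to 676 CPM in WT, with WT 4 far the lowest. None of the 40 passed the threshold in edgeR. At an unadjusted p under 0.05, 7 S phase and 6 G2/M genes were higher, beside 3.34% of all genes tested. The groups did not overlap for 0 S phase and 3 G2/M genes, beside 1.99% of all genes. The lists were chosen with earlier results of these data known, so nothing is read from these counts about them. DESeq2 called 1 in each list, beside 0.296% of all genes, namely Rrm2, a ribonucleotide reductase subunit (168 ± 36.1 and 90.6 ± 36.5 CPM, log2 fold change 0.89) and Ccnb2, cyclin B2 (65.1 ± 24.9 and 22.6 ± 3.13 CPM, log2 fold change 1.53). The S phase sum was 1493, 1902, 1899.7 and 2263 CPM in HET 1 to 4 and 1742, 1427, 1265 and 1236 CPM in WT 1 to 4. The G2/M sum was 811, 682, 884 and 1117 CPM in HET 1 to 4 and 629, 676, 585 and 206 CPM in WT 1 to 4. Within each group the S phase sum put the 4 libraries in the same order as Hmgb2 did. In that sum HET 2 and HET 3 were nearly tied, at 1902 and 1899.7 CPM. The sum did not give the HET order of H2az1, where HET 2 and HET 4 were nearly tied as well (452 and 449 CPM). Such near ties do not set Hmgb2 apart from H2az1. The sum also did not give the order of Hmgn2, highest of HET in HET 3, or of Hmga1, highest of WT in WT 2. The G2/M sum gave the order of none of these genes, Hmgb2 included. The part of cell cycle phase in the levels of Hmgb2, H2az1, Hmgn2 and Hmga1 was not tested, and in bulk RNA more cells expressing a transcript and more transcript per cell cannot be told apart.

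T cell transcripts lay in the same direction. Of the 15 markers 13 were tested, and all 13 were higher in HET, beside 49.9% of all genes tested. Their median log2 fold change was 0.85, and the summed level of the 15 was 347 to 663 CPM in HET and 191 to 486 CPM in WT. Cd4 was at 0 in 5 of the 8 libraries. None passed the threshold in edgeR or DESeq2. Themis had the only unadjusted p under 0.05 in edgeR, beside 3.34% of all genes higher. The groups did not overlap for 1 of the tested markers, beside 1.99% of all genes. Within HET the sum was highest in HET 2, the HET library with the highest Hmgb1, Hmgn1 and H2az1, and lowest in HET 4, the one with the highest Hmgb2, Hmgb3 and Hmga1. The part of T cell RNA in the levels of the 10 genes was not tested. Myeloid markers summed to 64.1 to 212 CPM in HET and 35.7 to 448 CPM in WT, with 4 of 8 tested genes higher in HET, and 10 of the 14 in the table were at 0 in at least 1 library. DESeq2 called Flt3, a cytokine receptor (20.4 ± 4.65 and 7.94 ± 3.05 CPM, adjusted p = 0.0147), beside 0.296% of all genes called higher, and edgeR called none.

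**Figure D5:**
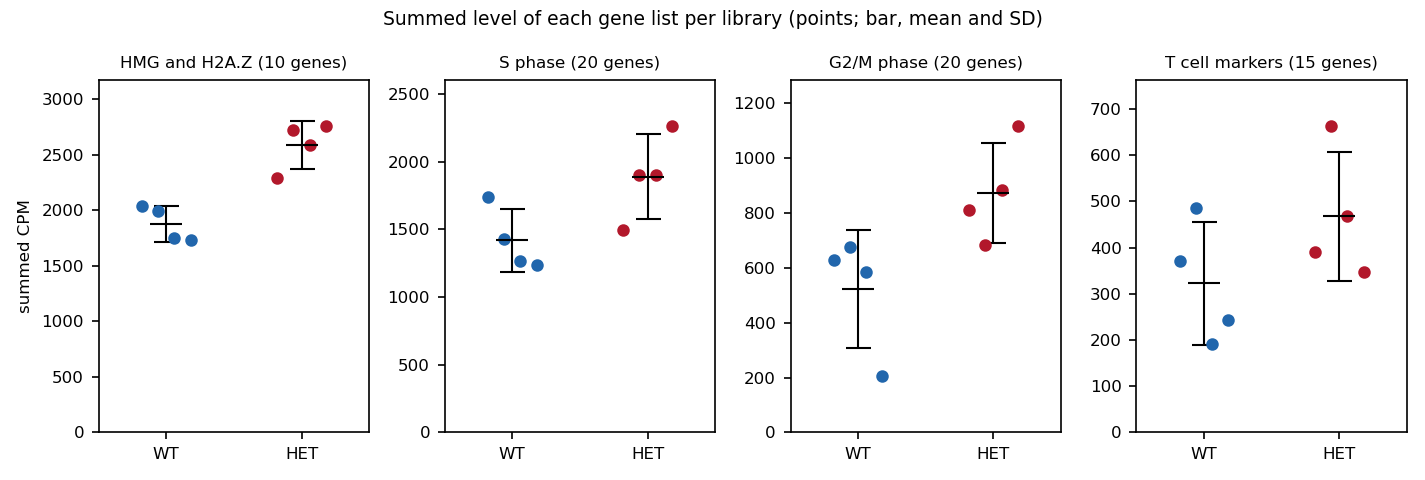
Summed CPM per library of the 10 HMG and H2A.Z genes, 20 S phase genes, 20 G2/M genes and 15 T cell markers, in WT (blue) and HET (red), with mean and SD in black and each vertical axis from 0. The groups were separate for the 10 genes (2285 to 2757 against 1727 to 2041 CPM) and, by a small margin, for G2/M (682 to 1117 against 206 to 676 CPM) and overlapped for S phase and for T cell markers.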

How the data were processed

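RNA-seq of pre-GC B cells was analysed in 8 libraries (4 HET, 4 WT), grouped by their labels. The authors prepared SMART-Seq2 libraries, aligned reads to GRCm38 with HISAT2 2.2.1 and deposited read counts per gene made with HTSeq, without molecular identifiers. The authors also deposited TPM values, used here for levels and for shares within a gene family, and not for tests. The annotation, strand setting and treatment of reads with several alignments are not given in the sources used here.

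Tests were run on the counts with edgeR 4.0.16 in R 4.3.3 (filterByExpr, TMM, robust quasi-likelihood F-test, group as the only factor, Benjamini-Hochberg adjustment, threshold 0.05). The study used DESeq2. Here DESeq2 1.42.0 was an alternative, as were other size factors, no filter, a replicate block and each library left out. CPM values were TMM-scaled. A count of 3 equals 0.241 to 0.455 CPM, which covers counting error only. Exon lengths came from GENCODE M21 on GRCm38 and promoters from RefSeq. The members and lists were chosen with earlier results of these data known. All 10 members were named, with the 3 genes of lowest p (or those called) in each other list and the 5 genes most like Hmgb2 and H2az1. Levels per exon length were added after seeing the data. The edgeR fit was tested on simulated counts.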

Additional observations from a re-analysis of the deposited data

Results flagged for a closer look

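Of 28 groups of 4 values examined, 2 held a library that stood apart by Dixon's criterion, which chance alone meets in about 5% of groups. Hmgb1 was at 466 CPM in WT 3 and at 511 to 520.1 CPM in the other WT libraries, a gap of 0.834 of the range. Hmga1 was at 118 CPM in WT 2 and at 83.0 to 88.1 CPM in the other WT libraries, a gap of 0.855 of the range, and WT 2 was thus the library that brought the 2 groups close together for Hmga1. Neither gap has a second library beside it, and the causes were not tested.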

How the results depend on the processing

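The number of the 10 genes past the threshold was 0 in edgeR, 3 without the filter on low counts (Hmgb2, H2az1 and Hmgn2, adjusted p = 0.000154, 0.000463 and 0.0248), 4 in DESeq2 and 0 to 2 when 1 library was left out, with 2 without WT 1. DESeq2 called 1 H2A.Z deposition or removal gene, edgeR 0, and 0 to 0 when 1 library was left out. The count of genes higher in HET ran from 9 to 10 and the median log2 fold change from 0.41 to 0.54 when 1 library was left out. Hmgn3 turned to -0.08 without HET 1, -0.03 without WT 1, -0.0012 without WT 4 and -0.12 without HET 1 and WT 4, while the other fits without 1 library reached 0.15. H2az2 turned to -0.08 (-0.077) without HET 1 and WT 4 and was 0.01 to 0.21 without 1 library. The HET minus WT difference in the Hmgb2 share was 4.73 points from TPM (3.74 to 5.62 with 1 library left out), 9.59 from counts and 9.43 per exon base. That in the H2az1 share was 1.50 points from TPM (1.24 to 1.87), 8.01 from counts and 8.32 per exon base, the gene length being what differs. The shares were planned from TPM, while leaving out HET 1 and WT 4 and the exon lengths were chosen after seeing the data. With a replicate block, 0 of the 10 genes passed (Hmgb2, H2az1 and Hmgn2 at an adjusted p of 0.299), 10 were higher, the median was 0.45 and 0 H2A.Z machinery genes passed. Same-numbered libraries did not deviate together (r from -0.0511 to 0.0129), so the numbers do not pair them. Hmgb3 had the lowest counts, 49 to 240 per library. With about 200 cells per library and 1 pool per group, no setting separates pool from group.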
